A study of Mus musculus with 24 samples.

Results

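Imprinted genes are expressed mainly or only from the maternal or the paternal chromosome, in at least some tissues or isoforms. Here 35 known imprinted mouse genes were listed by name, grouped by the chromosomal cluster they belong to. Of these, 30 were found by gene name among the 25755 genes of the deposited tables, and Rian, Airn, Kcnq1ot1, Nespas and Peg13 were not matched by name and were not analysed here. The list was drawn up with knowledge that Nnat was higher in the mutant at P20, so the P20 comparison between genotypes is given as a description only.

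The samples were dermal papilla (DP) cells, the mesenchymal niche at the base of the hair follicle, sorted from mouse skin at postnatal days P20 and P60 (telogen, the resting phase) and P24 and P28 (early and mid anagen, the growth phase). Each age had 3 control and 3 dM1/2 libraries, 24 in all. The dM1/2 animals carried Corin-Cre/+ with Hdac1 fl/fl and Hdac2 fl/fl, so that both histone deacetylase genes were deleted by a Cre expressed from the DP gene Corin. The controls carried Corin-Cre/+ with floxed Hdac1 or Hdac2 alleles in several combinations, some of them homozygous for 1 of the 2 genes, and the labels do not give the combination of each library. All animals therefore carried the Cre, which came from an FVB line, while the floxed lines were C57BL/6J, and YFP-positive cells were sorted in 2 rounds. Reads were not assigned to a parental chromosome, so the values below are the summed output of both alleles. The expressed allele named for a gene below is prior knowledge and was not measured in these cells.

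An imprinted gene receives a DNA methylation mark in the egg or the sperm, and the mark is kept through the cell divisions of the embryo by zinc-finger proteins such as ZFP57, which bind methylated TGCCGC sites and recruit repressive chromatin proteins. Neighbouring imprinted genes often share 1 control region, and the members of a cluster may be expressed from opposite chromosomes. Many imprinted genes act on growth before and shortly after birth, and several, among them H19, Dlk1, Peg3 and Plagl1, are known to decline in most tissues as an animal matures.

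RefSeq promoter windows (GRCm38.p6, 250 bases before to 50 bases after the start) were found for 24 of the 30 genes. The motif TGCCGC, searched on both strands, was in 9 of 36 windows of these genes and in 11.6% of all 32851 windows. The genes were Copg2, Grb10, Meg3, Mest, Nnat, Plagl1, Snrpn and Zim1. The windows with the motif include Mest windows that begin at 30737800 and 30737803 and so overlap almost fully. The 36 member windows were also richer in CpG, with a median of 14 CpG against 7 over all windows. A match is a description of the letters, not of a bound site. The windows of 4 genes that differed between genotypes at P24 are shown 5′ to 3′ on the strand of the gene, with TGCCGC or its reverse complement in capitals.
Nnat (chr2:157559828-157560127, plus strand): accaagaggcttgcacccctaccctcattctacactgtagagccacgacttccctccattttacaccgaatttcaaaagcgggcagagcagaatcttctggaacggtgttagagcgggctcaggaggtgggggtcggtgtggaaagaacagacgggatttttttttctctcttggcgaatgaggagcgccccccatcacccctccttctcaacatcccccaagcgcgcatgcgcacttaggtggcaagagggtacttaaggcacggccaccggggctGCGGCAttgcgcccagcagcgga
Plagl1 (chr10:13090582-13090881, plus strand): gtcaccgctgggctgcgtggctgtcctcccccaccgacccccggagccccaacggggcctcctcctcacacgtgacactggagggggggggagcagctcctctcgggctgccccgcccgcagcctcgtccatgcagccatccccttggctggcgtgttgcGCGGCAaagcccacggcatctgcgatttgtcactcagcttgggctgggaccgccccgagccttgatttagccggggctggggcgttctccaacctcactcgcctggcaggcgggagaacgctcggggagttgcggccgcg
Peg3 (chr7:6730370-6730669, minus strand): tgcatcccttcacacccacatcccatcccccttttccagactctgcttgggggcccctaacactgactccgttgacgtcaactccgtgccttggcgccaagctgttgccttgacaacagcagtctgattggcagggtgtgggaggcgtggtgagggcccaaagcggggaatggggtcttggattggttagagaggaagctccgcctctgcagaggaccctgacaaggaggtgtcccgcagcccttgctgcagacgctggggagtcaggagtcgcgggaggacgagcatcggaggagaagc
Magel2 (chr7:62376729-62377028, plus strand): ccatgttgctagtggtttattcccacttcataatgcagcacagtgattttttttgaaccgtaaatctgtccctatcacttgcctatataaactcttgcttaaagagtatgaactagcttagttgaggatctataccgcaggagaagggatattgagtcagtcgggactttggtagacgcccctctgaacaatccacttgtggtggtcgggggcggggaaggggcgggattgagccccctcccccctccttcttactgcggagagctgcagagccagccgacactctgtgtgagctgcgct
The Nnat window holds the reverse complement of the motif, its first base 27 bases after the start, and the Plagl1 window holds it with its first base 90 bases before the start. The Peg3 window overlaps that of Usp29, which is read in the opposite direction, over 263 bases, and neither holds the motif. Magel2 had 10 CpG in its window and Plagl1 had 26.

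Several features of the libraries bear on the results below. Values are normalized reads, the reads on a gene scaled by a size factor for each library. Depth on genes was 11635062 to 13369732 reads per library at P20, 35469841 to 49331751 at P24, 37171260 to 48331795 at P28 and 8171944 to 9724000 at P60. Every library of P20 and P60 had at least 8113 normalized reads of Xist and none of Ddx3y, while every library of P24 and P28 had at most 3.91 of Xist and at least 969 of Ddx3y, so hair cycle stage, sex and depth cannot be told apart here. Hdac1 was 675, 668 and 668 in the P24 controls and 209, 188 and 116 in the P24 dM1/2 libraries, and at P28 it was 214, 529 and 105 in controls and 190.2, 149 and 126 in dM1/2, so P28 control 3 lay below all dM1/2 libraries of its age. Hdac2 was not called between genotypes at P24 or P28 (log2 fold change 0.27 and 0.16), and whether reads from outside the deleted exons made up its count was not tested. The DP marker Corin was detected in every library, from 133 to 75255 normalized reads. The keratinocyte marker Krt14 was at 0 to 118 and Krt5 at 3.18 to 229, and the sum of 9 keratinocyte markers was 104 to 805. In telogen the sums of 6 markers of other fibroblasts, 64853 to 210491, were above those of 14 DP markers, 18634 to 61808. Such sums over different genes do not measure shares of cells. In P28 control 3 the sum of 6 markers of other fibroblasts was 6284, against 47880 and 99101 in the other P28 controls, and in P60 dM1/2 1 it was 210491, against 115093 and 126341 in the other P60 dM1/2 libraries. In sorted bulk samples, fewer cells of a type and less RNA per cell cannot be told apart.

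The question of what loss of Hdac1 and Hdac2 does to these genes in anagen was addressed by comparing dM1/2 with control at P24 and at P28. Nnat and Magel2 were many times higher in dM1/2 at both ages, while Plagl1 and Sgce were lower at both. Magel2 passed the limit for testing, a mean of 10 normalized reads, only through its dM1/2 libraries, and is included in the counts below. At P24, 7 of 28 members tested passed the threshold (limma, Benjamini-Hochberg adjusted p under 0.05), a share of 25% beside 26.6% of all 14028 genes tested. Of these members 4 were higher, beside 14.8% of all genes, and 3 lower, beside 11.8%. At P28, 11 of 27 passed, a share of 40.7% beside 35.5% of 14126 genes. Of these 8 were higher, beside 20% of all genes, and 3 lower, beside 15.6%. The shares of members called in either direction thus lay near those of all genes. By direction, 14.3% of members were higher and 10.7% lower at P24, and 29.6% higher and 11.1% lower at P28. Whether the shares by direction differ from those of all genes was not tested. The median log2 fold change of the members was 0.22 at P24 and 0.46 at P28, and that of all genes was -0.01 and 0.00.

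**Figure D1:**
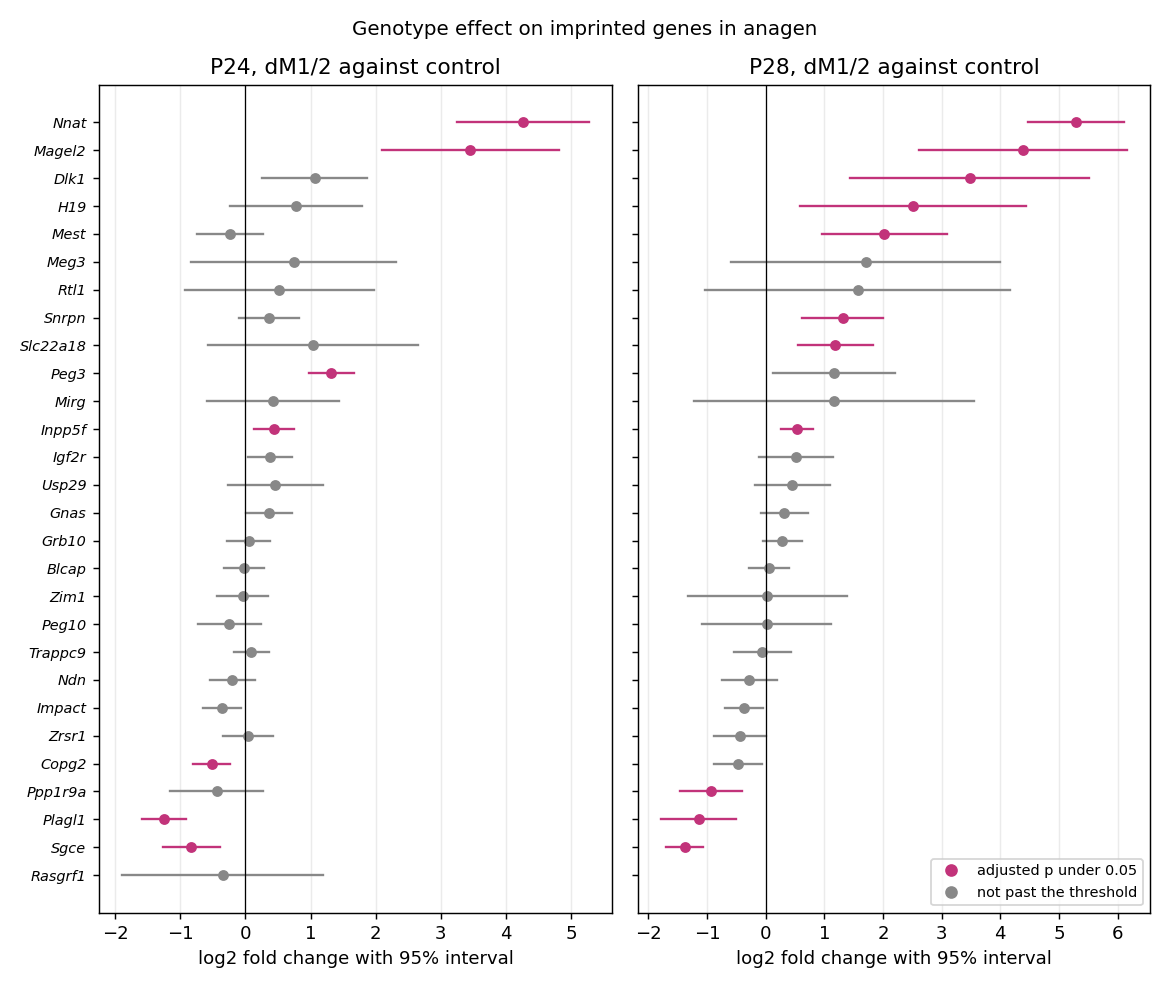
Log2 fold change of dM1/2 against control (x axis, no unit) for each imprinted gene tested at P24 (left) and P28 (right), with 95% intervals from limma. Points in magenta passed an adjusted p of 0.05, 7 genes at P24 and 11 at P28, and Nnat is the highest in both panels.

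Both ages together gave 13 of 28 members called at P24 or P28, a share of 46.4% beside 41.7% of the 14348 genes tested at either age. Of these members 9 were higher, beside 22.5% of all genes, and 4 lower, beside 19.2%, and 17 of the 30 found were called at neither age. Nnat, Magel2 and Inpp5f were called higher and Plagl1 and Sgce lower at both ages. Magel2, tested only through its dM1/2 libraries, is included in the counts of higher and of paternally expressed members given here. Groups did not overlap for 7 members higher (25%, beside 23.8% of all genes) and 4 lower (14.3%, beside 21% of all genes) at P24. At P28 this held for 11 members higher (40.7%, beside 28%) and 6 lower (22.2%, beside 23.3%). Of the 15 paternally expressed members tested at P24, 3 were called higher and 2 lower, and of the 10 maternally expressed members 1 was lower. At P28 the paternally expressed members gave 5 higher and 2 lower of 14 tested, and the maternally expressed ones 2 higher and 1 lower of 10. For the other 3, Blcap, Gnas and Inpp5f, the expressed allele depends on the isoform, and of these Inpp5f was called higher at both ages. Over all genes, 14.8% were called higher and 11.8% lower at P24, and 20% and 15.6% at P28.

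Nnat, which encodes neuronatin, a small proteolipid of the endoplasmic reticulum, is a paternally expressed gene at chromosome 2, 157560078 to 157562522, and lies inside Blcap on the opposite strand. It was 51.1, 59.7 and 172 normalized reads in the P24 controls and 1605, 1226 and 1943 in the P24 dM1/2 libraries. At P28 the controls had 22.6, 37.1 and 63.0 and the dM1/2 libraries 1399, 1667 and 1465. Every dM1/2 library of both ages was far above every control. Nnat was 16.9-fold higher in dM1/2 by the ratio of means at P24 (1591 ± 359 against 94.4 ± 67.6, SD, n = 3 each) and 36.9-fold higher at P28. On the log2 scale it rose by 4.26 ± 0.43 (SE, limma adjusted p = 0.00139) at P24 and by 5.29 ± 0.34 (adjusted p = 0.000258) at P28. Both calls held in each alternative tried. Blcap, a membrane protein gene in which Nnat is nested, was 629, 534 and 591 in the P24 controls and 644, 576 and 509.6 in dM1/2, and its log2 fold change was -0.02 ± 0.13 at P24 and 0.05 ± 0.14 at P28 (SE). The 95% interval of the Blcap difference was -0.34 to 0.29 at P24 and -0.29 to 0.39 at P28.

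**Figure D2:**
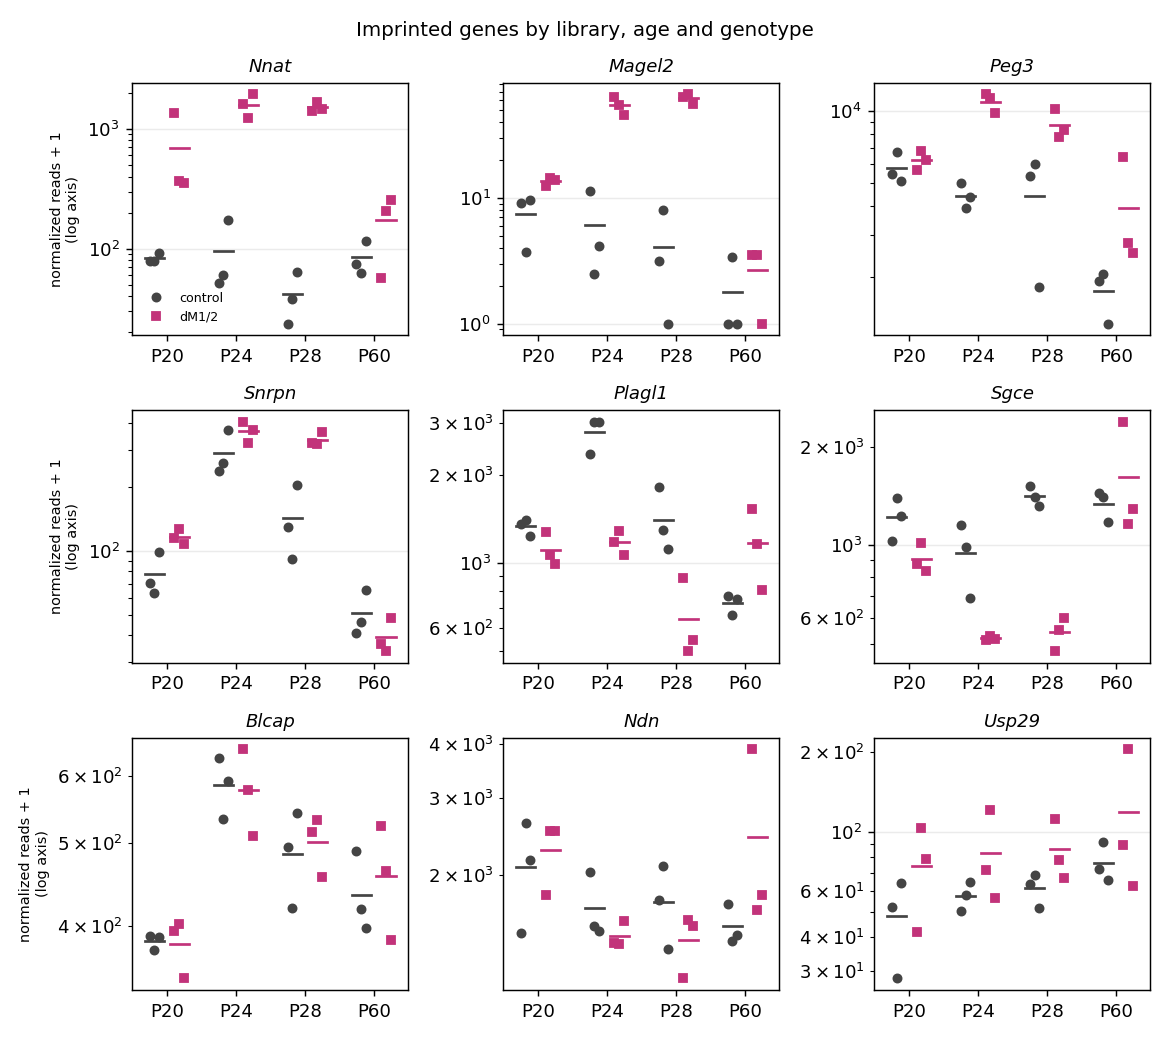
Normalized reads plus 1 (y axis, logarithmic) of 9 imprinted genes by age (x axis), with control libraries as grey circles, dM1/2 libraries as magenta squares and arithmetic group means as bars, n = 3 per group. Nnat, Magel2 and Peg3 of dM1/2 lie above all controls at P24 and P28, and Plagl1 and Sgce of dM1/2 lie below all controls there.

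At P20, the comparison by which the list was drawn up, Nnat was 77.7, 78.5 and 91.8 in controls and 1367, 367 and 351 in dM1/2. All 3 dM1/2 libraries were above the controls, with dM1/2 replicate 1 well above the other two. No test is given for these values. The P20 genotypes also differed in marker sums without overlap. Other fibroblast markers summed to 64853 to 81463 in dM1/2 and 92213 to 145827 in controls. DP markers summed to 43001 to 61808 in dM1/2, highest in replicate 1, and 34190 to 39425 in controls. The part of these markers was not tested. At P60 it was 73.5, 62.0 and 115 in controls and 55.5, 204 and 254 in dM1/2, and these groups overlapped. The overlap came from dM1/2 replicate 1, and the other dM1/2 libraries were above every control. That replicate had the highest other fibroblast marker sum (210491) and the lowest DP marker sum (18634) of all 24 libraries. The part of these markers was not tested. The P60 log2 fold change was 0.81 ± 0.56 (SE, limma adjusted p = 0.986).

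The Prader-Willi cluster on chromosome 7 holds the paternally expressed genes Magel2, Ndn and Snrpn. Magel2, a MAGE family gene whose protein acts with a ubiquitin ligase in protein sorting, was 10.4, 1.51 and 3.18 in the P24 controls and 61.8, 53.7 and 45.0 in dM1/2. At P28 it was 2.17, 7.04 and 0 in controls and 61.8, 65.6 and 55.0 in dM1/2. Control values were close to the limit of 3 reads, which is 1.01 to 1.92 normalized reads per library at these ages, so the fitted differences depend on the pseudocount. The control means were also under the 10 normalized reads needed for testing. Magel2 therefore entered both fits only through its dM1/2 libraries, and being tested is no separate evidence of a rise. Magel2 rose by 3.45 ± 0.59 on the log2 scale at P24 (SE, limma adjusted p = 0.00591) and by 4.39 ± 0.75 at P28 (adjusted p = 0.00513). Snrpn, which encodes the spliceosomal protein SmN, was 128, 90.9 and 204 in the P28 controls and 321, 318 and 363 in dM1/2, with no overlap. It rose by 1.31 ± 0.29 at P28 (SE, limma adjusted p = 0.0133), and the call was lost without P28 dM1/2 3 (adjusted p of 0.0540). At P24 the Snrpn values were 238, 260.1 and 372 in controls and 406, 321 and 372 in dM1/2, which overlapped (log2 fold change 0.36 ± 0.20). Ndn, a growth suppressor gene whose annotated start lies 30441 bases from that of Magel2, had a log2 fold change of -0.20 ± 0.15 at P24 and -0.28 ± 0.20 at P28 and was not called. Snrpn shares its strand with Snurf, so reads of that pair cannot be told apart by strand.

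The Peg3 cluster, also on chromosome 7, holds the zinc-finger genes Peg3 (paternal) and Zim1 (maternal) and the deubiquitinase family gene Usp29 (paternal). Peg3 was 4972, 3907 and 4336 in the P24 controls and 11765, 11321 and 9816 in dM1/2, a 2.49-fold difference of means with no overlap. It rose by 1.32 ± 0.15 at P24 (SE, limma adjusted p = 0.00177), and this call held in each alternative. At P28 the controls had 5325, 5967 and 1824 and dM1/2 10160.2, 7814 and 8328, and the log2 fold change of 1.17 ± 0.44 did not pass (adjusted p = 0.0798). P28 control 3 was the low value there, and without it Peg3 was called higher by 0.63 ± 0.18 (adjusted p = 0.0244). Usp29, whose annotated start lies 147 bases from that of Peg3 on the other strand, was 49.1, 56.7 and 63.5 in the P24 controls and 70.9, 119.6 and 55.1 in dM1/2. It was not called at P24 or P28 (log2 fold change 0.46 ± 0.31 and 0.46 ± 0.27). Zim1 was not called at either age with all libraries (log2 fold change -0.04 ± 0.17 at P24 and 0.03 ± 0.57 at P28), but without P28 control 3 it was called lower at P28, by 0.69 ± 0.17 (adjusted p = 0.0146).

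Plagl1 and the Peg10-Sgce cluster held most of the members that were lower in dM1/2. Plagl1, a paternally expressed zinc-finger transcription factor gene at chromosome 10, 13060504 to 13131694, was 2360.5, 3041 and 3028 in the P24 controls and 1179, 1287 and 1063 in dM1/2. At P28 it was 1813, 1294 and 1113 in controls and 891, 499 and 545 in dM1/2. The groups did not overlap at either age. Plagl1 fell by 1.25 ± 0.14 on the log2 scale at P24 (SE, limma adjusted p = 0.00184) and by 1.14 ± 0.27 at P28 (adjusted p = 0.0172). The P28 call was lost without P28 control 1, P28 dM1/2 2 or P28 dM1/2 3 (adjusted p from 0.0592 to 0.0691). The summed reads of 14 DP markers were also lower in dM1/2, at 165403 to 201189 against 310600 to 371748 in controls at P24 and at 134702 to 149030 against 152107 to 444187 at P28. The markers did not all go one way: 1 of the 14 was called higher and 7 lower at P24, and 4 were called higher and 4 lower at P28. Their part in the result was not tested.

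Sgce, the paternally expressed gene of epsilon-sarcoglycan, a membrane protein of the dystrophin complex, was 1517, 1400.0 and 1314 in the P28 controls and 475, 550.2 and 600.2 in dM1/2. At P24 it was 1152, 985 and 692 in controls and 514, 526 and 516 in dM1/2. The dM1/2 libraries were lower than each control at both ages and close to one another. Sgce fell by 1.38 ± 0.13 at P28 (SE, limma adjusted p = 0.000691), a call that held in each alternative, and by 0.83 ± 0.19 at P24 (adjusted p = 0.0166), a call lost without P24 control 2, P24 dM1/2 1 or P24 dM1/2 3 (adjusted p from 0.0549 to 0.0627). Peg10, a retrotransposon-derived paternally expressed gene whose annotated start lies 99 bases from that of Sgce, was 378, 473 and 326 in the P24 controls and 401, 335 and 259 in dM1/2. Its log2 fold change was -0.25 ± 0.21 at P24 and 0.02 ± 0.46 at P28, and it was not called at either age. Ppp1r9a, which encodes the actin-binding protein neurabin and is maternally expressed, was 144, 181 and 142 in the P28 controls and 101, 75.0 and 68.6 in dM1/2. It fell by 0.93 ± 0.22 at P28 (SE, limma adjusted p = 0.0169), and the call was lost without P28 control 1, P28 dM1/2 2 or P28 dM1/2 3 (adjusted p from 0.0511 to 0.0673). Its P24 values overlapped between genotypes (log2 fold change -0.44 ± 0.30). Asb4, an ankyrin repeat gene of the same cluster, had a mean under 10 normalized reads in anagen and was not tested there.

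H19, Dlk1 and Mest, from separate clusters, were called higher in dM1/2 at P28 but not at P24. H19, a maternally expressed noncoding RNA that hosts Mir675, was 214, 374 and 38.3 in the P28 controls and 629, 1451 and 646 in dM1/2. Dlk1, a paternally expressed membrane protein of the Notch ligand family, was 111, 103 and 11 in controls and 391, 911 and 542 in dM1/2. Mest, a paternally expressed hydrolase-like gene, was 324, 277 and 103 in controls and 629, 1149 and 870.4 in dM1/2. All 3 genes had their lowest value in P28 control 3 and did not overlap between genotypes. H19 rose by 2.52 ± 0.81 (SE, limma adjusted p = 0.0495), Dlk1 by 3.48 ± 0.86 (adjusted p = 0.0199) and Mest by 2.02 ± 0.45 (adjusted p = 0.0135). The H19 call was lost without P28 control 1, P28 dM1/2 1, P28 dM1/2 2 or P28 dM1/2 3 (adjusted p from 0.0843 to 0.164) and also with no filter on low values, with at least 10 reads in every library and by edgeR (adjusted p from 0.0511 to 0.0606). That of Dlk1 was lost without P28 dM1/2 1, P28 dM1/2 2 or P28 dM1/2 3 (adjusted p from 0.0508 to 0.0807), and that of Mest without P28 dM1/2 2 (adjusted p of 0.0594). Without P28 control 3 the rises were 1.57 ± 0.39 for H19 (adjusted p = 0.0156), 2.42 ± 0.32 for Dlk1 (adjusted p = 0.00109) and 1.51 ± 0.25 for Mest (adjusted p = 0.00263).

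Within groups, H19, Dlk1 and Mest shared their highest library in 6 of 8 groups and their lowest in 6 of 8, a description over 3 libraries a group. The summed markers of other fibroblasts were 47880, 99101 and 6284 in the P28 controls and 16227 to 27805 in the P28 dM1/2 libraries. P28 control 3 was thus the lowest P28 library for the marker sum as well as for the 3 genes, and the part of the markers in these differences was not tested. At P24 the values were 672, 258 and 225 for H19 in controls and 428, 526 and 873 in dM1/2, which overlapped (log2 fold change 0.78 ± 0.44). For Dlk1 they were 131, 63.8 and 54.8 and 136, 150.1 and 209, which did not overlap but missed the threshold (log2 fold change 1.06 ± 0.35, adjusted p = 0.0585). For Mest they were 1111, 835 and 773 and 576, 794 and 959.8, which overlapped (log2 fold change -0.24 ± 0.22). Copg2, a coatomer subunit gene whose 3′ end overlaps that of Mest on the opposite strand, was 1074, 1119 and 1079 in the P24 controls and 676, 764 and 858 in dM1/2. It fell by 0.52 ± 0.12 at P24 (SE, limma adjusted p = 0.0195), a call lost without P24 control 2, P24 dM1/2 1 or P24 dM1/2 2 (adjusted p from 0.0589 to 0.0782). At P28 its log2 fold change was -0.47 ± 0.17 (adjusted p = 0.0750).

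**Figure D3:**
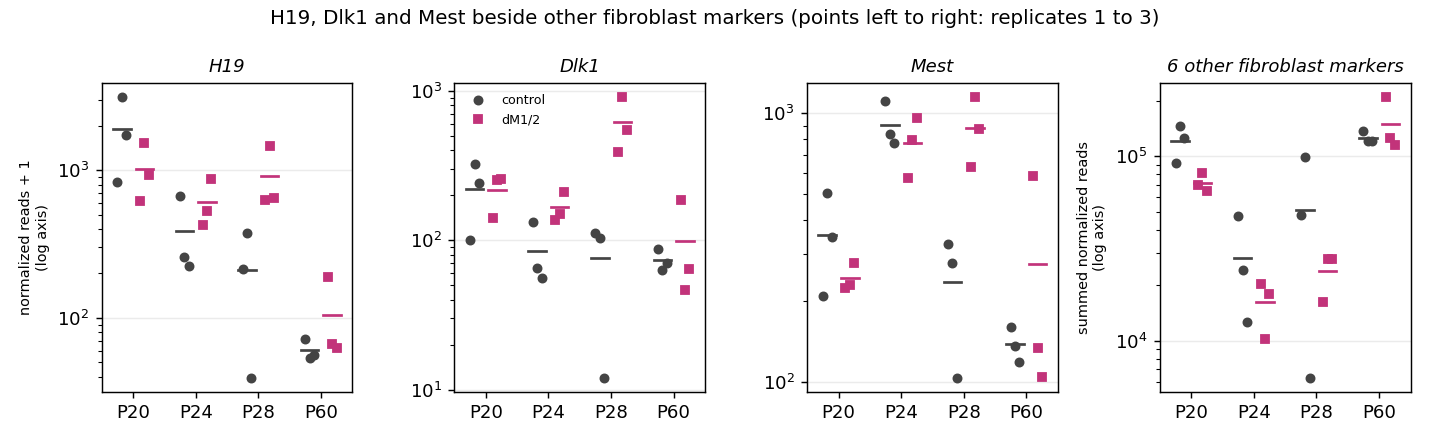
Normalized reads plus 1 of H19, Dlk1 and Mest and the summed normalized reads of 6 markers of other fibroblasts (y axes, logarithmic) by age (x axis), with controls as grey circles, dM1/2 as magenta squares and group means as bars, n = 3. P28 control 3 is the lowest of all 24 libraries for the marker sum (6284) and is the lowest P28 library in all 4 panels.

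The Dlk1-Dio3 domain on chromosome 12 also holds Meg3 and Mirg, maternally expressed noncoding RNAs, and Rtl1, a paternally expressed retrotransposon-derived gene. Meg3 was 475, 621 and 762 in the P24 controls and 1559, 2272 and 295 in dM1/2, and 472, 1622 and 89.9 and 2206, 1205 and 909 at P28. These ranges overlapped at both ages and spread widely within each group. None of the 3 genes was called between genotypes at P24 or P28, with log2 fold changes of 1.71 ± 0.97 for Meg3, 1.17 ± 1.01 for Mirg and 1.57 ± 1.10 for Rtl1 at P28. Without P28 control 2, Meg3 was called higher at P28 by 2.69 ± 0.70 (adjusted p = 0.0250) and Rtl1 by 2.69 ± 0.80 (adjusted p = 0.0398). In each of the 8 groups the same library was highest for Meg3, Mirg and Rtl1, and in 5 of 8 the same was lowest. Adding Dlk1, the same library was highest for all 4 genes in 0 of 8 groups. Rtl1 lies opposite several microRNA genes that share the maternal transcript, so without a stated strand setting its reads cannot be told apart from those of that transcript.

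**Figure D4:**
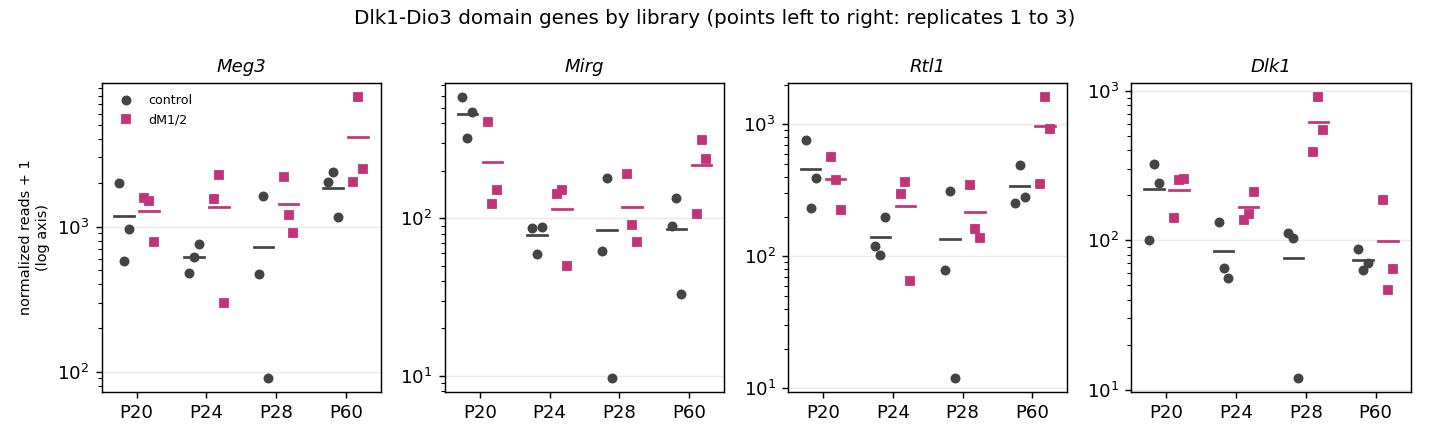
Normalized reads plus 1 (y axis, logarithmic) of Meg3, Mirg, Rtl1 and Dlk1 by age (x axis), with controls as grey circles, dM1/2 as magenta squares, replicates 1 to 3 from left to right and group means as bars. Meg3, Mirg and Rtl1 peak in the same library of all 8 groups, and Dlk1 does not follow them.

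Inpp5f and Slc22a18 were the remaining members called higher in anagen. Inpp5f, a phosphoinositide phosphatase gene with an imprinted short isoform, was 496, 466 and 568 in the P24 controls and 673, 767 and 642 in dM1/2, and 512, 479.7 and 550.3 and 752, 772 and 698 at P28. The shift was small and without overlap at both ages. It rose by 0.44 ± 0.13 at P24 (SE, limma adjusted p = 0.0427), a call lost without P24 control 1, P24 control 2, P24 dM1/2 1, P24 dM1/2 2 or P24 dM1/2 3 (adjusted p from 0.0609 to 0.154) and also with no filter on low values, by edgeR and on log2-CPM with TMM (adjusted p from 0.0509 to 0.0523). It rose by 0.53 ± 0.12 at P28 (adjusted p = 0.0128), a call lost without P28 control 1 or P28 dM1/2 2 (adjusted p from 0.0552 to 0.0575). Slc22a18, a maternally expressed transporter gene of the Kcnq1 cluster, was 29.1, 34.6 and 33.0 in the P28 controls and 75.1, 96.4 and 57.4 in dM1/2. It rose by 1.19 ± 0.27 at P28 (SE, limma adjusted p = 0.0150), and the call was lost without P28 control 1 or P28 dM1/2 2 (adjusted p from 0.0567 to 0.0673) and also in the single fit over all 24 libraries (adjusted p of 0.120). At P24 its values overlapped (log2 fold change 1.03 ± 0.69). Phlda2, a pleckstrin homology domain gene beside it, was 0, 0 and 0 in the P28 controls and 17.5, 18.4 and 9.23 in dM1/2, and its mean was under the limit for testing.

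Members called at neither anagen age included growth regulators with high read numbers. Grb10, an adaptor that restrains insulin and IGF1 receptor signalling, was 6954 ± 878 in P24 controls and 7182 ± 476 in dM1/2 (SD, n = 3), with a 95% interval of the log2 difference of -0.28 to 0.38. Igf2r, the receptor that clears IGF2, was 4324 ± 575 and 5598 ± 453, with an interval of 0.04 to 0.71 that lay above 0 without the adjusted p passing (0.0915). Gnas, which encodes the stimulatory G protein subunit, had a log2 fold change of 0.36 ± 0.15 at P24 and 0.31 ± 0.17 at P28. Impact, an inhibitor of the GCN2 stress kinase pathway, had -0.36 ± 0.12 and -0.37 ± 0.14, and Zrsr1, a splicing factor relative, had 0.05 ± 0.16 and -0.44 ± 0.19. Trappc9, a subunit of a vesicle tethering complex, had 0.09 ± 0.12 and -0.06 ± 0.21. Rasgrf1, a Ras exchange factor, was at most 22.6 normalized reads in every anagen library and was tested only at P24 (log2 fold change -0.35 ± 0.66). Expressed per kilobase of annotated exon, the highest members in P24 controls were Grb10 (765 ± 96.6 normalized reads per kilobase, SD, n = 3), Igf2r (465 ± 61.7) and Ndn (457 ± 82.7). Igf2r and Ndn, neighbours in this order, did not differ beyond their spread.

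The difference between the genotype effects of the growth and resting phases was fitted over all 24 libraries, as the mean effect at P24 and P28 minus that at P20 and P60. Nnat was left out of the count, because its P20 values entered the choice of genes. The difference passed for 7 of 27 members, 3 with a higher and 4 with a lower effect in anagen, a share of 25.9% beside 30.2% of 14243 genes. Magel2 differed by 3.12 ± 0.73 (SE, limma adjusted p = 0.00334), Dlk1 by 2.14 ± 0.67 (adjusted p = 0.0201) and Snrpn by 0.71 ± 0.26 (adjusted p = 0.0460). Plagl1 differed by -1.38 ± 0.22 (adjusted p = 0.000169), Sgce by -0.997 ± 0.21 (adjusted p = 0.00149), Zrsr1 by -0.50 ± 0.14 (adjusted p = 0.0116) and Impact by -0.42 ± 0.11 (adjusted p = 0.00842). The Nnat difference was 2.99 ± 0.55, given without a test. The Snrpn call was lost in 17 of 24 fits that left out 1 library (adjusted p from 0.0517 to 0.0896) and also with no filter on low values, by edgeR and by DESeq2 (adjusted p from 0.0551 to 0.0728). The Magel2 call was lost by edgeR (adjusted p of 0.166). Magel2 was under the limit for testing at P20 and at P60. Its means, in normalized reads per kilobase of exon, were 1.39 in control and 2.71 in dM1/2 at P20, and 0.17 and 0.36 at P60. Its telogen effect was thus not tested, and its difference rests mainly on the anagen libraries. Magel2 passed the limit for testing in this fit through its dM1/2 libraries of anagen, and is included in the count. Zrsr1 was 143, 169 and 155 in the P24 controls and 179, 162 and 143 in dM1/2, and 221, 171 and 178 and 162, 123 and 136 at P28. In telogen it was 139, 122 and 129 in controls and 189, 179 and 192 in dM1/2 at P20, and 168, 150.1 and 166 and 167, 176 and 174 at P60. The dM1/2 libraries lay below the controls at P28 and above them at P20, and the groups overlapped at P24 and P60. Impact was 1279.9, 1508 and 1455 in the P24 controls and 1181, 1136 and 991 in dM1/2, and 1489, 1159 and 1517 and 1091, 1063 and 1055 at P28. In telogen it was 884, 795 and 817 in controls and 919, 907 and 962 in dM1/2 at P20, and 966, 1015 and 918 and 871, 1081 and 875 at P60. The dM1/2 libraries lay below the controls at P24 and P28 and above them at P20, and the groups overlapped at P60. P20 libraries of all members enter this contrast, and sex and depth also differ between the phases, as stated above. The P20 genotypes also differed in their sums of other fibroblast and DP markers, whose part in this contrast was not tested.

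Between the anagen ages few members moved. In controls 0 of 26 members were called between P24 and P28 (limma, with 5 at an unadjusted p under 0.05), beside 1.46% of 13966 genes called and 18.6% at that unadjusted p, and edgeR called 0 and DESeq2 2. In dM1/2, 1 of 28 was called, beside 2.67% of 14032 genes: Dlk1 rose from 165 ± 38.4 to 615 ± 268 (SD, n = 3), by 1.83 ± 0.30 on the log2 scale (SE, limma adjusted p = 0.0195). That call was lost without P24 dM1/2 1, P28 dM1/2 2 or P28 dM1/2 3 (adjusted p from 0.0594 to 0.0695) and also in the single fit over all 24 libraries (adjusted p of 0.306). The genotype effect at P28 minus that at P24 passed for 0 of 27 members (limma, with 4 at an unadjusted p under 0.05), beside 0.707% of 14139 genes called and 11.9% at that unadjusted p, and edgeR called 0 and DESeq2 1. The calls made at P28 but not at P24 are therefore not shown to differ between the ages.

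At P60, in the second telogen, 0 of 27 members were called between genotypes by limma, edgeR or DESeq2 (limma, 6 at an unadjusted p under 0.05), beside 0% of 14042 genes called and 3.74% at that unadjusted p. Zim1 was 162, 136 and 50.7 in controls and 894, 181 and 214 in dM1/2. Peg3 was 1929, 2054 and 1273 and 6402, 2796 and 2518. Both genes were higher in dM1/2 without overlap, as were 4 of 27 members in all (14.8%, beside 4.79% of genes), and 1 was lower (3.70%, beside 4.08%). The dM1/2 library with the high fibroblast marker sum, replicate 1, was the highest for both. The log2 fold change was 1.64 ± 0.65 for Zim1 and 1.05 ± 0.36 for Peg3 (adjusted p = 0.986 for each of the pair). At P20 the 27 members other than Nnat that reached the limit for testing had log2 fold changes between -1.75 (Asb4) and 0.69 (Rasgrf1). Magel2 and Phlda2 were under that limit. In normalized reads per kilobase of exon, Magel2 was 1.39 in control and 2.71 in dM1/2, and Phlda2 was 2.45 and 8.74. These P20 values are given as a description.

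The change from the first to the second telogen was examined in each genotype. In controls, H19, Mirg, Zim1, Peg3, Dlk1, Mest and Plagl1 were lower at P60 than at P20, and Rasgrf1 and Inpp5f were higher. These 9 of 27 members tested, Nnat left out, gave a share of 33.3%, beside 12.6% of 13900 genes, with 7 lower calls (25.9%) beside 6.45% of genes and 2 higher calls (7.41%) beside 6.12%. H19 was 833, 3138 and 1727 at P20 and 71.4, 52.4 and 55.3 at P60, a fall in every library. It fell by 4.78 ± 0.39 on the log2 scale (SE, limma adjusted p = 0.000217), and its P60 mean was 0.0314 of that at P20. The summed markers of other fibroblasts were 92213 to 145827 in the P20 controls and 121270 to 137012 in the P60 controls, which overlapped. Those of the DP markers were 34190 to 39425 and 27464 to 37998, which also overlapped, with 2 of the 14 markers called higher and 4 lower. Summed melanocyte markers were higher at P60, at 1155 to 1437 against 801 to 991, and summed skeletal muscle markers lower, at 14.3 to 48.4 against 59.5 to 118. The part of these markers in the change was not tested. Both groups were female by Xist.

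**Figure D5:**
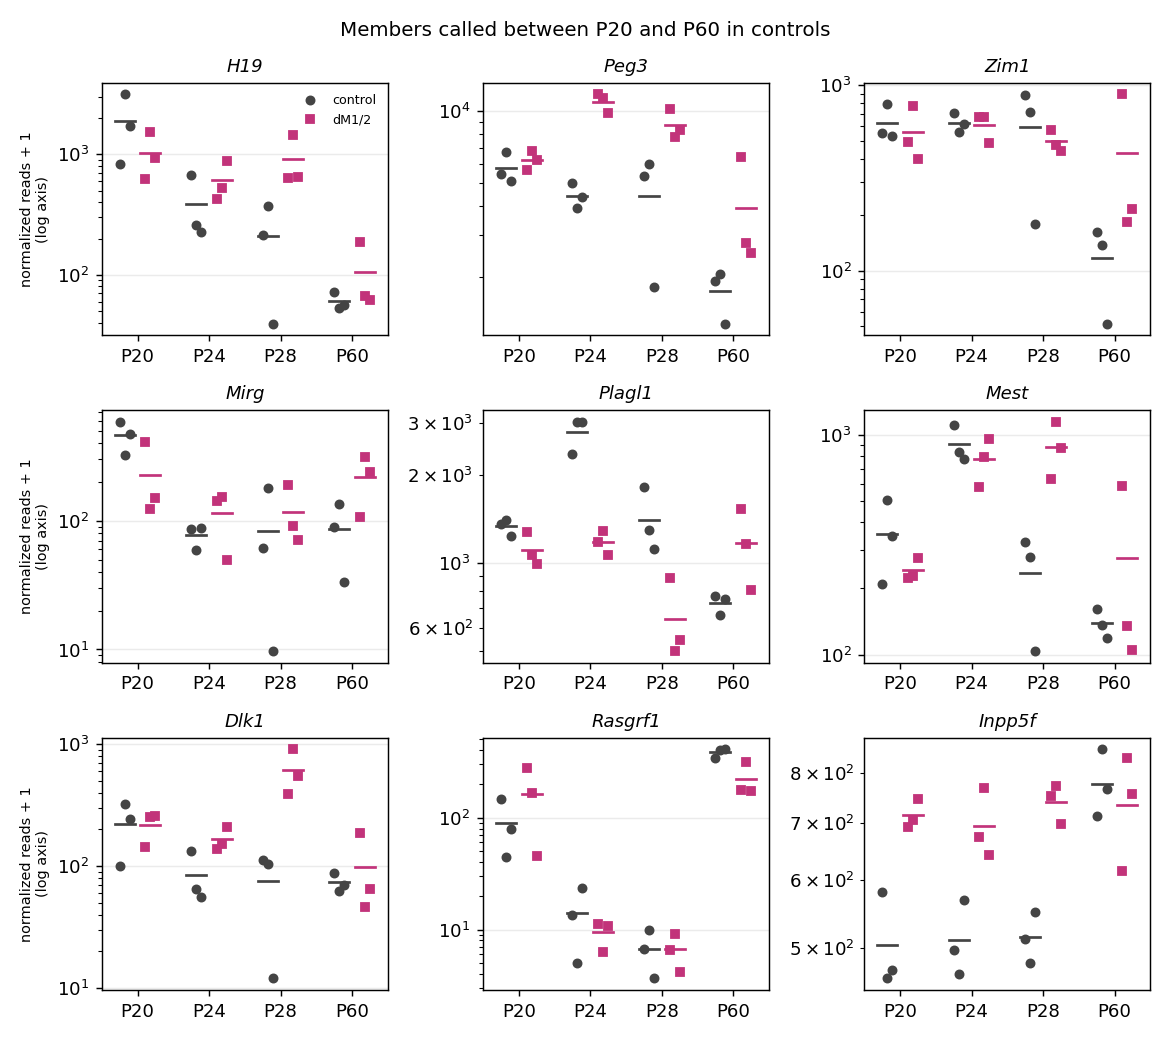
Normalized reads plus 1 (y axis, logarithmic) by age (x axis) of the 9 members called between P20 and P60 in controls, with controls as grey circles, dM1/2 as magenta squares and group means as bars, n = 3. H19 of controls falls from between 833 and 3138 at P20 to between 52.4 and 71.4 at P60.

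Of the Peg3 cluster, Peg3 was 5410.2, 6726 and 5091 at P20 and 1929, 2054 and 1273 at P60 in controls, and Zim1 was 552, 795 and 533 and 162, 136 and 50.7. Both were lower in each P60 library than in any P20 library. Peg3 fell by 1.73 ± 0.19 (SE, limma adjusted p = 0.000996) and Zim1 fell by 2.56 ± 0.38 (adjusted p = 0.00333), while Usp29 was not called (log2 fold change 0.74 ± 0.36). In the Dlk1-Dio3 domain, Mirg was 589, 322 and 473 at P20 and 88.2, 133 and 32.3 at P60, and Dlk1 was 99.1, 322 and 241 and 86.1, 62.0 and 69.2. Mirg fell by 2.61 ± 0.45 (adjusted p = 0.00695) and Dlk1 by 1.45 ± 0.39 (adjusted p = 0.0391), a call lost without P20 control 2, P20 control 3, P60 control 1, P60 control 2 or P60 control 3 (adjusted p from 0.0621 to 0.146) and also in the single fit over all 24 libraries (adjusted p of 0.156). Meg3, read from the same strand as Mirg, was 2011, 576 and 967 and 2021, 2388 and 1171 (log2 fold change 0.78 ± 0.40), and without P20 control 1 it was called higher at P60, by 1.25 ± 0.31 (adjusted p = 0.0257). Mirg and Meg3 thus had values of opposite sign between the ages.

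Plagl1 was 1361, 1404 and 1239 in the P20 controls and 768, 665 and 754 at P60, without overlap, and fell by 0.87 ± 0.13 (SE, limma adjusted p = 0.00316). Mest was 209, 503 and 344 and 159.5, 136 and 118 and fell by 1.27 ± 0.30 (adjusted p = 0.0239), a call lost without P20 control 2, P20 control 3, P60 control 2 or P60 control 3 (adjusted p from 0.0615 to 0.0932) and also in the single fit over all 24 libraries (adjusted p of 0.0929). Rasgrf1 went the other way, from 145, 43.3 and 77.4 to 338, 398 and 410.4, and rose by 2.26 ± 0.36 (adjusted p = 0.00495). Inpp5f was 581, 459.9 and 470.4 and 712, 853 and 765 and rose by 0.63 ± 0.15 (adjusted p = 0.0260), a call lost without P20 control 2, P20 control 3, P60 control 2 or P60 control 3 (adjusted p from 0.0662 to 0.117). Grb10 and Peg10 had log2 fold changes of -0.67 and -0.64 and just missed the threshold (adjusted p = 0.0575 and 0.0550). Without P20 control 1, 14 members were called, among them Grb10, Peg10, Ndn and Gnas as lower.

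In dM1/2, 2 of 26 members were called between P20 and P60, Nnat left out, beside 6.32% of 14124 genes, both lower (7.69%, beside 2.35% of genes called lower). H19 was 618, 1529 and 923 at P20 and 187, 65.4 and 61.2 at P60 and fell by 3.38 ± 0.48 (SE, limma adjusted p = 0.0111), a call lost without P20 dM1/2 2, P20 dM1/2 3 or P60 dM1/2 2 (adjusted p from 0.0539 to 0.0612). Snrpn was 114, 126 and 107 and 35.3, 32.7 and 47.1 and fell by 1.58 ± 0.28 (adjusted p = 0.0206), a call lost without P20 dM1/2 1, P20 dM1/2 2, P20 dM1/2 3 or P60 dM1/2 2 (adjusted p from 0.0670 to 0.104). Nnat was 1367, 367 and 351 at P20 and 55.5, 204 and 254 at P60, lower in each P60 library, and no test is given for it. P60 dM1/2 1, the library with the high fibroblast marker sum, also had the highest P60 value of Peg3, Zim1, Mest and Dlk1. Without it 8 members were called: H19, Dlk1, Snrpn, Zim1, Peg3 and Mest lower and Meg3 and Rtl1 higher. In that fit H19 fell by 3.90 ± 0.32 (adjusted p = 0.000573), Dlk1 by 1.94 ± 0.32 (adjusted p = 0.00666) and Peg3 by 1.23 ± 0.14 (adjusted p = 0.00160). The fibroblast marker sums of the P60 dM1/2 libraries, 115093 to 210491, were above those of the P20 dM1/2 libraries, 64853 to 81463. DP marker sums moved the other way, from 43001 to 61808 at P20 to 18634 to 34600 at P60, and 7 of the 14 DP markers were called lower and 0 higher. Melanocyte and endothelial marker sums were higher at P60 without overlap, at 1224 to 2764 against 812 to 899 and at 1289.7 to 6162 against 882 to 1282, and skeletal muscle sums lower, at 47.8 to 56.5 against 68.2 to 126. The part of these markers in the changes was not tested. Whether the change with age differed between genotypes was not tested.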

How the data were processed

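RNA-seq libraries of sorted DP cells (24 libraries, 3 per age and genotype) were grouped by the sample labels, which name biological replicates. After ribosomal depletion and directional library preparation, the authors used Trimmomatic on single-end reads, Tophat version 2 for alignment to mm10, HTSeq with Ensembl GRCm38.p4 for counting, and DESeq2 for normalization. The strand setting of the counting is not given in the sources used here. The signal deposited by the authors is a read count divided by the library's size factor, and whole reads were recovered for 100% of the values (relative tolerance 1e-06). The authors' own fold changes and p-values were deposited too and were not used. Low counts limit precision: 3 reads correspond to 1.01 to 8.60 normalized reads, depending on the library, and this covers counting error only.

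Here limma 3.58.1 with a mean-variance trend (R 4.3.3) was run on log2(normalized reads + 1) for genes averaging 10 or more normalized reads in the libraries fitted. P-values were adjusted over all genes tested (Benjamini-Hochberg), with a threshold of 0.05. Fold changes on this scale understate those of low genes. Alternatives were log2(normalized reads + 10), no filter, at least 10 reads in every library, log2-CPM with TMM, edgeR 4.0.16 and DESeq2 1.42.0 on recovered reads, a replicate block, a single fit over all 24 libraries and leaving out each library. The limma step was tested on simulated data. Positions come from the GENCODE M21 annotation of GRCm38, 25431 of 25755 identifiers matching, and promoter sequences from RefSeq. The members and gene lists were chosen with earlier results of these data known. Every member found is named, and values per library are given for those called in a tested comparison and for Nnat.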

Additional observations from a re-analysis of the deposited data

Results flagged for a closer look

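The genotype effect (log2 dM1/2 against control) in anagen minus that in telogen differed from 0 for 7 of 27 imprinted genes (25.9%) in the fit over 24 libraries, beside 30.2% of all genes tested. It was 2.14 for Dlk1, 3.12 for Magel2 and 0.71 for Snrpn. It was -1.38 for Plagl1, -0.997 for Sgce, -0.50 for Zrsr1 and -0.42 for Impact. Magel2 was under the limit for testing in both telogen ages, so its difference rests mainly on the anagen libraries. It passed that limit in the fit over 24 libraries through its dM1/2 libraries of anagen. Nnat was not among the genes tested, because its P20 values entered the choice of genes. Anagen and telogen libraries also differed in sex and depth, whose part in these differences was not tested.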

How the results depend on the processing

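The 37 member calls of the comparisons tested gave 634 values under the alternatives. Of these, 543 kept the call, 91 lost it with the same direction, and 0 changed direction. In every alternative that gave a value, 18 of the 37 calls were kept. With at least 10 reads required in every library Magel2 was not tested, so its calls have no value there. Without 1 library, the number of members called was 4 to 8 at P24, 4 to 16 at P28, 0 to 0 at P60, 6 to 14 from P20 to P60 in controls and 0 to 8 in dM1/2. It was 0 to 1 from P24 to P28 in controls, 0 to 2 in dM1/2, 0 to 0 for the P28 minus P24 effect and 6 to 9 for anagen minus telogen. The lowest P24 count came without P24 control 2, among others, and the lowest P28 count without P28 dM1/2 2. From P20 to P60 in dM1/2, DESeq2 called 5 members and the single fit 6. From P24 to P28, DESeq2 called 2 and the single fit 3 in controls, and in dM1/2 the larger pseudocount called 2, DESeq2 3 and the single fit 0. For the P28 minus P24 effect DESeq2 called 1. The Magel2 anagen minus telogen difference was not called by edgeR (adjusted p = 0.166). The cause of these changes was not tested.

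Replicate numbers are shared between groups, but same-numbered libraries did not deviate together in every pair of any comparison (lowest correlation of a comparison -0.40 to 0.02). Single pairs were higher, as for the P60 genotypes (0.34, 0.02 and 0.17 for numbers 1 to 3). With 3 libraries a group, these values cannot exclude a pairing by number, and the libraries were treated as unpaired. With the replicate block, 5 members were called at P24, 9 at P28, 0 at P60, 6 from P20 to P60 in controls and 3 in dM1/2, 0 from P24 to P28 in controls and 2 in dM1/2, 0 for the P28 minus P24 effect and 7 for anagen minus telogen. The block lost 7 member calls (adjusted p from 0.0506 to 0.127), those of Inpp5f at P24, at P28 and from P20 to P60 in controls, Copg2 at P24, Ppp1r9a at P28, and Dlk1 and Mest from P20 to P60 in controls. The P20 comparison between genotypes is a description, so its alternatives were not run, and Nnat was left out of the counts that use P20 libraries. Depth at P20 and P60, between 8171944 and 13369732 reads, limits statements on Magel2, Phlda2 and Asb4 there.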

Other observations

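A second list of 36 imprinted genes outside the 35, of which 24 were tested in anagen, gave 7 called higher and 1 lower in dM1/2 at P24 and 8 higher and 1 lower at P28, beside 14.8% and 20% of all genes called higher and 11.8% and 15.6% called lower. Dio3, the thyroid hormone deiodinase of the Dlk1-Dio3 domain, rose by 5.82 ± 0.68 on the log2 scale at P24 (SE, limma adjusted p = 0.00198) and by 3.80 ± 0.68 at P28. Igf2, the growth factor gene beside H19, rose by 3.21 ± 0.43 and 4.55 ± 0.37, and Slc38a4, an amino acid transporter, by 2.94 ± 0.44 and 3.46 ± 0.73. Zdbf2 rose by 2.54 ± 0.52 and 3.74 ± 0.50, Mkrn3 of the Prader-Willi cluster by 1.84 ± 0.29 and 2.16 ± 0.32, and Peg12 of the same cluster by 1.37 ± 0.15 and 1.14 ± 0.26. From P20 to P60, Tnfrsf23 (-1.86) and Smoc1 (-1.81) fell in controls, and in dM1/2 Dio3 fell by 2.87 and Dcn rose by 1.31. From P24 to P28 in dM1/2, Igf2 rose by 2.13 and Smoc1 by 1.37.

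Of 12 tested factors that keep imprints, 3 were called higher in dM1/2 at P24, and 4 higher and 1 lower at P28, beside 14.8% of all genes higher at P24 and 20% higher and 15.6% lower at P28. Their median log2 fold change was 0.29 at P24 and 0.37 at P28. Only Dnmt1 and Zfp57, which both rose, are described, and the factors called lower or not called are not named. At each age most of the 12 factors were not called, so Dnmt1 and Zfp57 do not stand for the list. No alternative was run for these genes. Dnmt1, the maintenance DNA methyltransferase, rose by 0.95 ± 0.14 at P24 and 1.21 ± 0.15 at P28. Zfp57 was 26.5, 25.6 and 22.0 in the P28 controls and 185, 77.6 and 61.8 in dM1/2, and rose by 1.92 ± 0.43 (SE, limma adjusted p = 0.0133). At P24 it was 35.6, 39.2 and 83.8 and 119.9, 110.1 and 69.0, which overlapped (log2 fold change 0.97 ± 0.38). Of 11 imprinted growth genes known to decline after birth, some of them members described above, 5 fell from P20 to P60 in controls, beside 6.45% of all genes (median log2 fold change -0.87, beside 0.03 over all genes). Because the lists share genes, these falls are not separate from the member calls above. Between genotypes, 3 of the 11 were called higher and 1 lower in dM1/2 at P24, and 5 higher and 1 lower at P28. Over all genes, 14.8% were higher and 11.8% lower at P24, and 20% and 15.6% at P28.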
